A study of Mus musculus with 2 samples.

Results

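The hypoxia and glycolysis genes are 32 genes of sugar breakdown and of the response to low oxygen, here described in the immune cells of mouse tumours. They were chosen by gene symbol from a fixed list, which was drawn up with earlier results of these data known. Each of the 32 symbols matched 1 of the 47730 features in the count tables. They fall into 15 glycolytic enzymes (Hk1, Hk2, Hk3, Gpi1, Pfkl, Pfkp, Aldoa, Aldoc, Tpi1, Gapdh, Pgk1, Pgam1, Eno1, Pkm and Ldha) and 17 targets or regulators of the hypoxia-inducible factor HIF (Slc2a1, Slc16a3, Pfkfb3, Pfkfb4, Pdk1, Hif1a, Egln1, Egln3, Bnip3, Bnip3l, Ero1l, Ndrg1, Adm, Hilpda, P4ha1, Ddit4 and Mif).

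Both groups were C57BL6\J mice that had been ovariectomised, which removes the main source of estrogen in a female. One group then received placebo and the other E2, the usual abbreviation of estradiol. Live cells carrying CD45, which marks the surface of white blood cells, were sorted from dissociated tumours and profiled with 3′ droplet libraries, 1 library in each group, 2 in all. The sources used here give neither the kind of tumour, the dose and duration of E2 nor the age and number of the mice.

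Glycolysis splits glucose into pyruvate in a chain of cytosolic steps that begins with a hexokinase, passes the committed step of phosphofructokinase and ends with pyruvate kinase, after which lactate dehydrogenase turns pyruvate into lactate. When oxygen is plentiful, prolyl hydroxylases mark the alpha subunit of HIF for destruction, and when oxygen is short HIF accumulates, pairs with its partner ARNT and binds promoters that hold a short core motif. Glucose uptake, glycolysis, lactate export, lipid droplet formation, mitophagy and the hydroxylases themselves are known targets, and in macrophages and neutrophils HIF also acts under inflammatory signals at normal oxygen.

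The sequences before the start sites show where this core motif lies in the members. In the RefSeq promoter table for GRCm38.p6, 29 of the 32 members had an entry, and Ero1l, Bnip3l and Ndrg1 were not matched. The motif searched was ACGTG or GCGTG on either strand, in the 250 bases before each listed start, and the palindrome CACGTG counts as a pair of overlapping positions. At least 1 position was found in 26 of the 29 members (89.66%), made up of 13 of 15 enzymes and 13 of 14 HIF targets and regulators. The same search found it in 41.54% of 27025 genes, and in 67.0% of the 7346 genes whose windows had at least 60% G and C. The median G and C content of the members' windows was 61.87%. A match is a run of letters and not a measured binding site. The 4 windows shown are those of an enzyme with 5 positions before the first of its 2 listed starts, Ldha, the hexokinase that differs between the libraries, Hk2, and the HIF regulators Egln3 and Hif1a, with the core motif on either strand in capitals. Ldha lies at chr7:46845554-46845803, plus strand, Hk2 at chr6:82774455-82774704, minus strand, Egln3 at chr12:54203875-54204124, minus strand and Hif1a at chr12:73907617-73907866, plus strand, and none of the 4 windows overlaps an exon of the GENCODE M21 annotation.

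Ldha: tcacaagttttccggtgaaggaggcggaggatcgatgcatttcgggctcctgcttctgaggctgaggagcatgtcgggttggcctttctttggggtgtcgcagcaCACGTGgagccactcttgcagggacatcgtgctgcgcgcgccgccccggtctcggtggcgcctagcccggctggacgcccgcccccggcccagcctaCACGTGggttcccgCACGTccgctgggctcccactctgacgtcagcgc

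Hk2: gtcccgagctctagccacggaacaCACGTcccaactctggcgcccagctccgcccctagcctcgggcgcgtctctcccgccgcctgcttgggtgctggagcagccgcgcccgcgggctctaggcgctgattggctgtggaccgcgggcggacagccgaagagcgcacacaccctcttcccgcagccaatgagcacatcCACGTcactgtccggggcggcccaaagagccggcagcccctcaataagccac

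Egln3: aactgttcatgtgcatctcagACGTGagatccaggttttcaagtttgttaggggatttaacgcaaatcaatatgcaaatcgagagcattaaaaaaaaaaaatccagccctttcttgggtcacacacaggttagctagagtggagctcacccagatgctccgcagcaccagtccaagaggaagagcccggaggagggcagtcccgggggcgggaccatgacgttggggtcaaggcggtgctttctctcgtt

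Hif1a: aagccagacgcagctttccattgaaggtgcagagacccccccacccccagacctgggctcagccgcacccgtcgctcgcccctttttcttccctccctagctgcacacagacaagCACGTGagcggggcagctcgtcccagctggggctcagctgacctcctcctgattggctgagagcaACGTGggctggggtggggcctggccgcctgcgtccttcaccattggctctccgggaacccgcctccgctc

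In placebo there were 3505 barcodes with 24545595 UMIs in all, and in E2 5791 barcodes with 52628133 (a UMI marks 1 captured transcript). After filters, 3393 placebo and 5499 E2 cells remained, with medians of 5090 and 7888 UMIs. The libraries shared 95 barcodes, with medians of 747 UMIs in placebo and 583 in E2. Of these, 53 in each library lay in a shallow cluster led by keratin genes, and 3 placebo and 6 E2 cells were in the monocyte/macrophage gate. Cells were assigned to types by fixed marker lists and are called X-like for that reason. The gates held 868 placebo and 2109 E2 monocyte/macrophage-like cells, 226 and 516 neutrophil-like, 1079 and 890 T-like, 62 and 309 cDC1-like, 92 and 286 cDC2-like, 87 and 139 mature dendritic-like, 61 and 227 mast-like, 42 and 96 NK-like and 175 and 54 B-like cells. Values are given as CPM, a gene's UMIs summed over a class in a library and scaled to a total of 1000000 UMIs, with exact Poisson 95% intervals in brackets. With 1 library in each group there is no replicate check and no test of E2 against placebo: every interval and ratio covers counting error only, and every difference is between these 2 libraries. A member is counted as lower or higher when the CPM differ by at least 1.5-fold and at least 20 UMIs were counted over both libraries in the class.

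Most members were expressed across all types, but several were concentrated in 1 or a few. The first step of glycolysis was divided among 3 hexokinases. Hk1, the widely expressed form, was highest in mast-like cells, at 157 CPM in placebo and 158 CPM in E2, against 79.2 and 68.7 CPM in T-like and 38.3 and 31.2 CPM in monocyte/macrophage-like cells. Hk2, the inducible form, was highest among the 9 types in myeloid cells, at 226 CPM in placebo and 128 CPM in E2 in monocyte/macrophage-like cells and 223 and 162 CPM in cDC2-like cells, against 19.6 and 10.1 CPM in mature dendritic-like cells. Hk3, a form of granulocytes and macrophages, was at 85.9 CPM in placebo and 105 CPM in E2 in neutrophil-like cells and 32.98 and 28.9 CPM in monocyte/macrophage-like cells, and at or below 7.91 CPM in every other type.

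The later enzymes also differed between types. Pfkp, the platelet form of phosphofructokinase, was highest in cDC1-like cells, at 308 CPM in placebo and 271 CPM in E2, followed by cDC2-like cells with 249.6 and 183 CPM. Aldoc, an aldolase first described in brain, was highest in cDC2-like cells with 47.2 and 35.7 CPM. Eno1, the enolase of most tissues, stood at 406 and 361 CPM in monocyte/macrophage-like and 323 and 327 CPM in cDC2-like cells, and at 23.99 and 34.1 CPM in mast-like cells. Ldha, which makes lactate, was highest in mast-like cells with 1160.5 and 1404 CPM, against 630.3 and 688 CPM in T-like and 123 and 109.5 CPM in mature dendritic-like cells. Mast-like cells thus had the highest Hk1 and Ldha and the lowest Eno1 of the 9 types in both libraries.

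The glucose carrier Slc2a1 (GLUT1) and the lactate exporter Slc16a3 (MCT4) were both highest in neutrophil-like cells. Slc16a3 was at 1154 CPM (1067 to 1247) in placebo and 1367 CPM (1312 to 1423) in E2 there, against 169.7 and 117 CPM in monocyte/macrophage-like cells and at most 55.1 CPM in the other types. Slc2a1 was at 290.0 CPM (247 to 338) in placebo and 240.3 CPM (218 to 265) in E2 in neutrophil-like cells. The neutrophil-like intervals of both carriers lay above those of monocyte/macrophage-like cells in both libraries.

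Among the regulators, Hif1a, which encodes the oxygen-regulated alpha subunit, was at 324 CPM in placebo and 263 CPM in E2 in T-like cells, 291 and 189 CPM in monocyte/macrophage-like cells and 54.5 and 47.3 CPM in cDC1-like cells. Egln1, the main prolyl hydroxylase that senses oxygen, was at 115 and 83.96 CPM in T-like and 95.98 and 104 CPM in mast-like cells. Egln3, a hydroxylase that HIF itself induces, was highest in neutrophil-like cells, at 115 CPM in placebo and 53.7 CPM in E2, and next in T-like cells with 53.8 and 41.4 CPM. No Egln3 UMI was found in cDC1-like cells of either library. Ndrg1, a hypoxia-induced gene also known from mast cell maturation, was at 739 and 738 CPM in mast-like cells, far above the next type, mature dendritic-like cells with 101 and 106 CPM. Pfkfb3, which makes the activator of phosphofructokinase, was highest in mature dendritic-like cells with 154 and 195 CPM. Adm, the peptide hormone adrenomedullin, reached 11.8 and 17.6 CPM in mature dendritic-like cells and passed 20 UMIs in no other type.

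**Figure D1:**
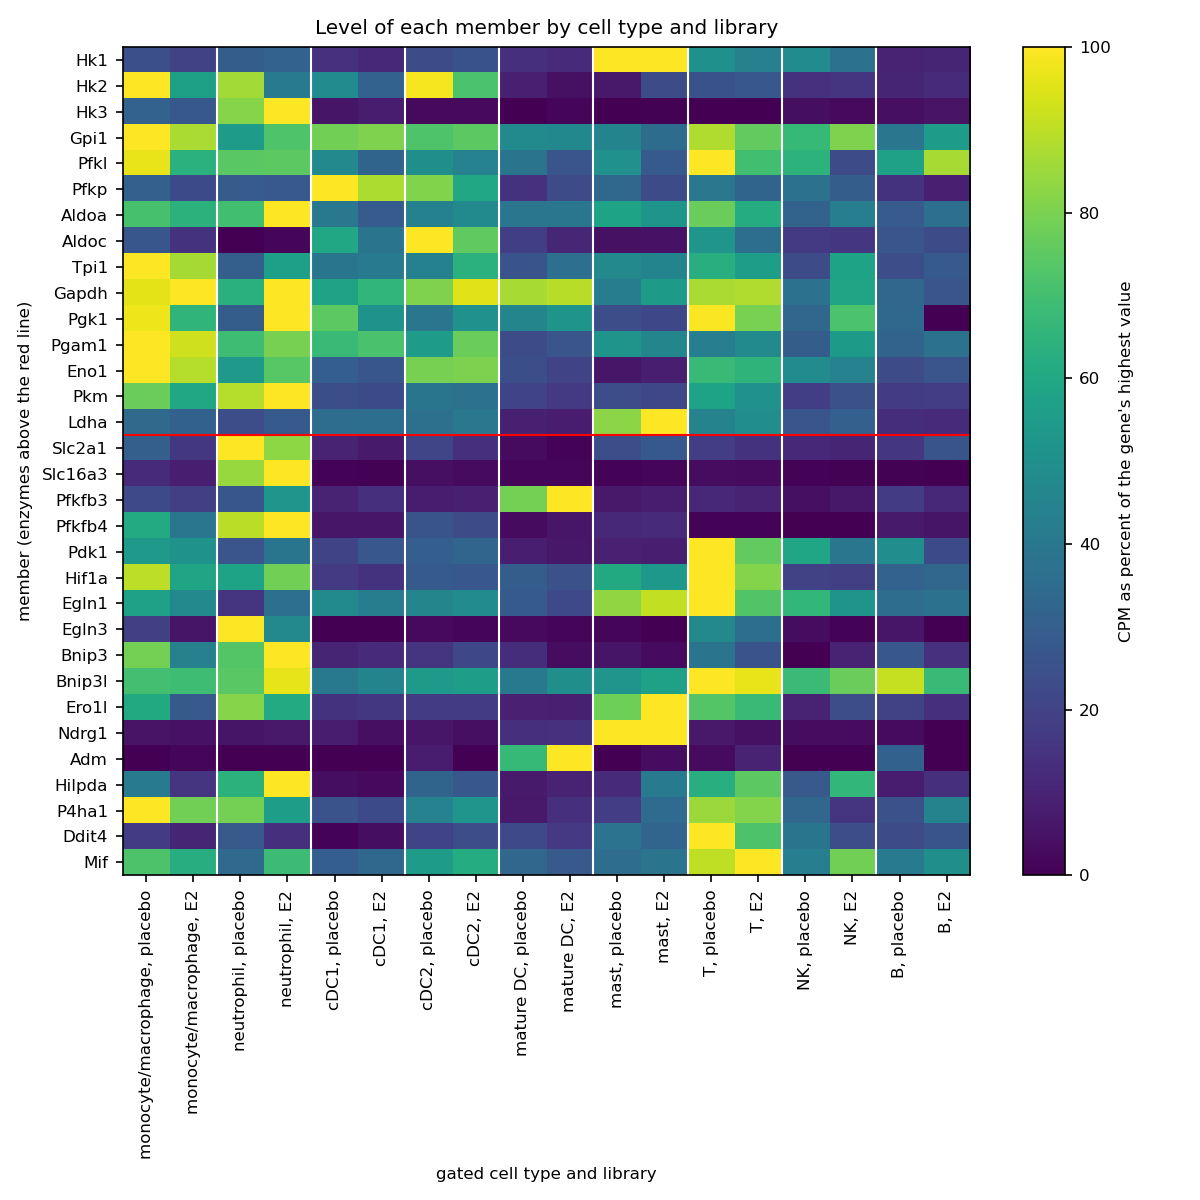
Level of each of the 32 members in 9 gated cell types (columns, placebo and E2 library of each type side by side), as percent of that gene's highest CPM over the 18 columns. The 15 enzymes are above the red line and the 17 HIF targets and regulators below it, and Slc16a3 and Hk3 stand out in neutrophil-like cells, Ndrg1 in mast-like cells and Adm in mature dendritic-like cells.

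In monocyte/macrophage-like cells, HIF targets were lower in the E2 library, while most glycolytic enzymes differed little. Of the 16 HIF members with at least 20 UMIs, 16 were lower in E2 and 8 were lower by at least 1.5-fold, where 7.98% of all 12820 genes were. All 15 enzymes had at least 20 UMIs, 14 of them were lower and 3 were lower by at least 1.5-fold. No member was higher by 1.5-fold. The median log2((CPM E2 + 10)/(CPM placebo + 10)) was -0.48 for the HIF members and -0.20 for the enzymes, beside -0.03 for all genes. Under median-of-ratios scaling 14 of the 16 HIF members and 14 of the 15 enzymes were lower, and Hif1a, Pfkfb4 and Pfkl no longer passed 1.5-fold, which 6.02% of genes passed. The HIF members together made up 0.157% of all UMIs in placebo and 0.113% in E2, and the enzymes 0.478% and 0.426%.

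Hilpda, which encodes a lipid droplet protein that inhibits triglyceride breakdown, was at 82.03 CPM (75.95 to 88.5) in placebo and 30.9 CPM (28.6 to 33.4) in E2, 2.65-fold (2.38 to 2.96) lower in E2. Egln3 was at 21.8 CPM (18.7 to 25.2) in placebo and 6.43 CPM (5.39 to 7.62) in E2, 3.39-fold (2.69 to 4.27) lower in E2. For the oxidase Ero1l, which forms disulphide bonds in the endoplasmic reticulum, the levels were 72.9 CPM (67.2 to 78.98) in placebo and 34.2 CPM (31.8 to 36.8) in E2, 2.13-fold (1.91 to 2.38) lower in E2. These 3 differed most among the members. Their intervals did not overlap between the libraries, but neither did those of Gapdh, which differed little. The share of all genes with such intervals was not counted.

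The carrier Slc2a1 was at 87.99 CPM (81.7 to 94.6) in placebo and 46.8 CPM (43.9 to 49.8) in E2, 1.88-fold (1.71 to 2.07) lower in E2. The mitophagy receptor Bnip3 was at 60.001 CPM in placebo and 32.8 CPM in E2, 1.83-fold (1.62 to 2.05) lower in E2, whereas its relative Bnip3l was at 111 CPM in placebo and 109 CPM in E2. Ddit4, an inhibitor of the growth kinase mTORC1, was at 18.1 CPM in placebo and 10.5 CPM in E2, 1.73-fold (1.397 to 2.14) lower in E2. Pfkfb4, a relative of Pfkfb3 that controls the same activator, was at 58.7 CPM in placebo and 37.6 CPM in E2, 1.56-fold (1.39 to 1.75) lower in E2. Hif1a itself was at 291 CPM (279.9 to 303) in placebo and 189 CPM (184 to 195) in E2, 1.54-fold (1.46 to 1.62) lower in E2. Just short of 1.5-fold was Slc16a3, at 169.7 CPM in placebo and 117 CPM in E2, 1.45-fold (1.36 to 1.55) lower in E2.

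Of the enzymes, Hk2 was at 226 CPM (216 to 237) in placebo and 128 CPM (123 to 133) in E2, 1.76-fold (1.66 to 1.87) lower in E2. The phosphofructokinase Pfkl was at 41.7 CPM in placebo and 27.6 CPM in E2, 1.51-fold (1.32 to 1.73) lower in E2, and Aldoc at 12.7 CPM in placebo and 6.91 CPM in E2, 1.83-fold (1.41 to 2.37) lower in E2. Pgk1, which makes the first ATP of the pathway, did not reach 1.5-fold, at 35.5 CPM in placebo and 23.8 CPM in E2. Other enzymes differed less. Gapdh was at 1317 CPM (1293 to 1342) in placebo and 1371 CPM (1355 to 1387) in E2, Aldoa at 492 CPM in placebo and 446 CPM in E2, Ldha at 483 CPM in placebo and 434 CPM in E2 and Pkm at 713 CPM in placebo and 550.4 CPM in E2. Gapdh was the 1 enzyme that was higher in E2. Gapdh, Pgk1, Pgam1, Eno1, Ldha, Bnip3l and Mif have near-identical processed copies in the genome, so their counts carry that uncertainty. The copies named after a member held at most 29 UMIs in placebo and 62 in E2 (Eno1b, beside 7062 and 14169 for Eno1). Copies under other names were not looked for, and these counts do not show whether reads shared with a copy went uncounted.

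**Figure D2:**
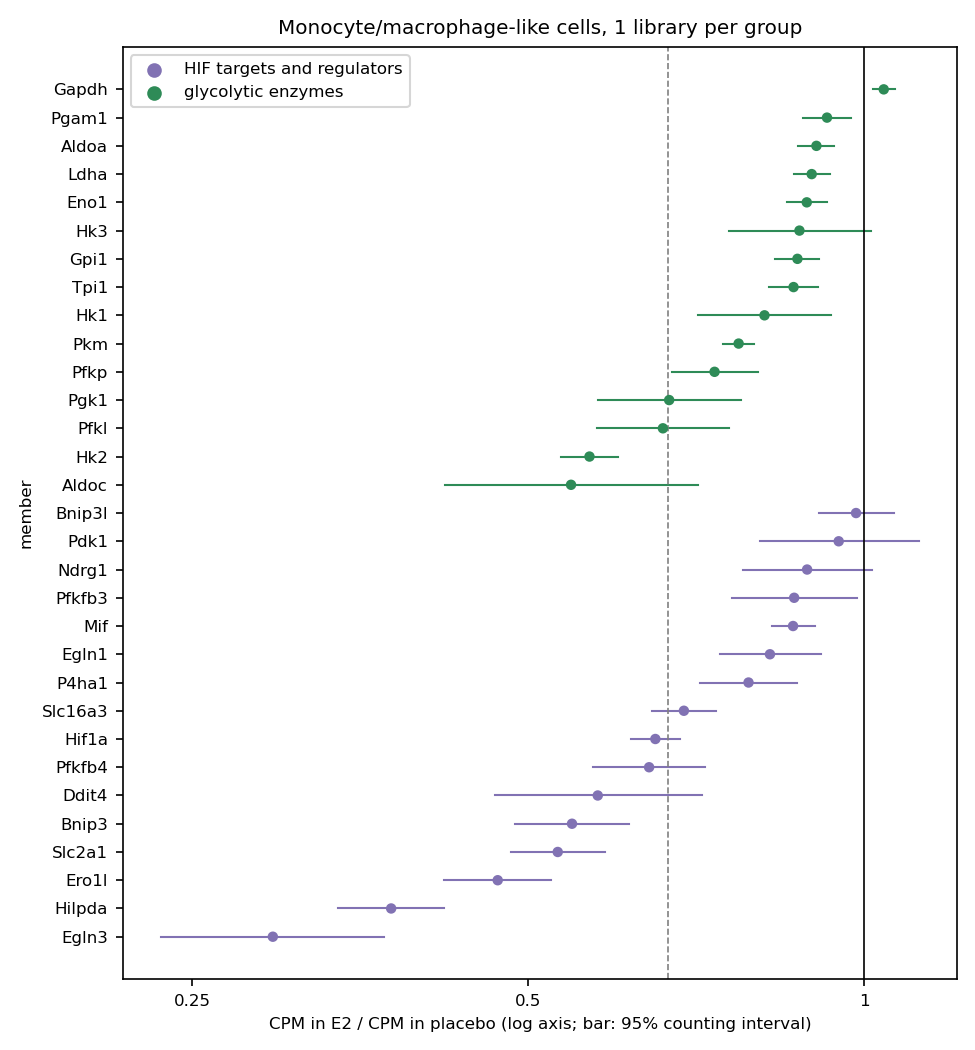
Ratio of CPM in E2 to CPM in placebo for the 31 members with at least 20 UMIs in monocyte/macrophage-like cells (log axis, bars are 95% counting intervals, the dashed line marks a 1.5-fold lower level). Egln3 and Hilpda lie farthest to the left, at ratios of 0.295 and 0.377, and Gapdh lies just above 1.

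The counts in monocyte/macrophage-like cells depended on which cells were included and on the mix of cell states. Equal weights for the 4 gated states leave out the 237 placebo and 456 E2 cells without a state. The states with under 30 cells in a library are left out too. With these weights, 2 HIF members and 1 enzyme were lower by 1.5-fold, where 10.1% of genes were, with medians of -0.13 and -0.06. With the 6 monocyte/macrophage clusters described next given equal weight, 3 HIF members and 1 enzyme were (8.73% of genes), with medians of -0.24 and -0.06. Without the cells of the cluster led by Arg1 and Mmp12, 1 HIF member and 2 enzymes were (7.81% of genes), and the medians were -0.11 and -0.05. Single members turned in direction: the log2 ratio of Hilpda was 0.022 with the states weighted equally, and that of Bnip3 was 0.035 without the cells of that cluster. In placebo, Hilpda reached at most 41.4 CPM in any of the 4 weighted states, below its level over the whole gate. Of 18 cell cycle genes, 13 were higher in E2 by at least 1.5-fold, and the median of that list was 0.37, and a list of dissociation stress genes had a median of -0.04. Summed neutrophil markers in these cells were at 116 CPM in placebo and 209 CPM in E2, and cDC2 markers at 227 CPM in placebo and 401 CPM in E2. Their part in the result was not tested.

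The share of cells with a UMI was also lower in E2 for these members. After each cell was thinned to 2000 UMIs, 834 placebo and 2045 E2 monocyte/macrophage-like cells remained, and 34 and 64 shallower cells were left out. A Hilpda UMI was found in 8.39% (6.601 to 10.5) of placebo and 4.21% (3.38 to 5.17) of E2 cells, an Egln3 UMI in 3.72% (2.54 to 5.23) and 0.978% (0.598 to 1.51), an Ero1l UMI in 11.6% (9.53 to 14.003) and 6.55% (5.52 to 7.71), and a Bnip3 UMI in 9.35% (7.46 to 11.5) and 5.23% (4.31 to 6.29), with exact Clopper-Pearson 95% intervals in brackets. None of these intervals overlapped between the libraries, and the share of all genes for which this holds was not counted. Before thinning the Hilpda shares were 20.05% and 13.8%, and the Egln3 shares 9.45% and 4.65%. In cDC1-like cells, the type with the lowest Hilpda level, Hilpda was found in 1.64% of 61 placebo and 0.997% of 301 E2 thinned cells, and Egln3 in 0 of 61 and 0 of 301, which allows shares of up to 4.92% and 0.997%. Both Egln3 shares in monocyte/macrophage-like cells lay below these limits, which are set by the number of cDC1-like cells. Median depths before thinning were 9296 and 9464 UMIs in monocyte/macrophage-like cells and 16683 and 16762 in cDC1-like cells. T-like cells had been set beforehand as the type in which hypoxia-induced members should be low. They gave Hilpda shares of 15.8% and 18.96%, above those of monocyte/macrophage-like cells. The cDC1-like cells were taken in their place by their Hilpda level in these same data.

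Within the monocytes and macrophages, most members of both groups were highest in the cluster led by Arg1 and Mmp12. Clusters were computed without the 32 members and are described by their leading genes, none of which is a member. This cluster had the highest level among the 6 monocyte/macrophage clusters for 14 of 15 enzymes and 12 of 17 HIF members in placebo, and for 9 and 11 in E2, where 5 enzymes were highest in the Retnla/Lyz1-led cluster. These counts used no UMI minimum, and the 11 include Adm at only 1.65 CPM. How many of all genes were highest in the Arg1/Mmp12-led cluster was not counted. In placebo, Hilpda was at 222 CPM there against 37.1 in the next cluster, led by Chil3 and Ly6c2, and Ero1l at 183 against 49.5 CPM. Ldha was at 881 CPM there and 603 in the Retnla/Lyz1-led cluster, the next highest.

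The Arg1/Mmp12-led cluster was a larger part of the gate in placebo. It held 181 of 868 gated cells (20.9%) and 22.3% of their UMIs in placebo, against 125 of 2109 (5.93%) and 7.07% in E2. From it came 74.9% of the gate's Egln3 UMIs in placebo and 25.4% in E2. The corresponding shares were 72.7% and 30.6% for Hilpda, 63.7% and 17.98% for Bnip3 and 63.6% and 20.5% for Ero1l. For the enzymes Ldha and Hk2 the shares were smaller, 41.5% and 13.4% for the former and 32.4% and 10.97% for the latter.

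Inside that cluster (271 placebo and 201 E2 cells, of which 66.8% and 62.2% were in the monocyte/macrophage gate), HIF targets were again lower in E2. Of 16 HIF members, 10 were lower by at least 1.5-fold, where 12.9% of genes were, and of 15 enzymes only Hk1 was. Medians were -0.57 for the HIF members, -0.20 for the enzymes and -0.07 for all genes. Egln3 was at 64.9 CPM (55.9 to 75.1) in placebo and 16.1 CPM (11.5 to 22.1) in E2, 4.02-fold (2.84 to 5.84) lower in E2. Bnip3 was at 158 CPM (144 to 174) in placebo and 70.8 CPM (60.5 to 82.2) in E2, 2.24-fold (1.87 to 2.68) lower in E2, and Ero1l at 183 CPM in placebo and 84.4 CPM in E2, 2.17-fold (1.84 to 2.56) lower in E2. Ndrg1 was at 119.9 CPM in placebo and 59.6 CPM in E2, Hilpda at 222 CPM in placebo and 114 CPM in E2, Slc2a1 at 197 CPM in placebo and 106 CPM in E2 and Slc16a3 at 293 CPM in placebo and 195 CPM in E2. The other HIF members past 1.5-fold were Pfkfb4, Egln1 and Ddit4. Under median-of-ratios scaling Slc16a3 and Egln1 did not pass it. Against this, Gapdh was at 2097 CPM in placebo and 2099.8 CPM in E2, Pgam1 at 549.7 CPM in placebo and 549.9 CPM in E2 and Eno1 at 610.3 CPM in placebo and 571 CPM in E2.

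After thinning, the share of the cluster's cells with an Egln3 UMI was 13.2% (9.26 to 18.04) in placebo and 2.72% (0.888 to 6.23) in E2, and with a Bnip3 UMI 24.8% (19.6 to 30.6) and 10.9% (6.77 to 16.3), against Ldha shares of 73.2% (67.3 to 78.6) and 71.7% (64.6 to 78.1). Unthinned, Egln3 was found in 26.9% and 11.9% and Bnip3 in 49.8% and 34.8%. Restricted to the 181 placebo and 125 E2 cells in the gate, 9 of 16 HIF members were lower by 1.5-fold with a median of -0.56, where 12.8% of genes were, and 3 of 15 enzymes with a median of -0.18. With standardised state scores, chosen after seeing that the fixed gate left 23 placebo and 7 E2 cells, an Arg1/Mmp12 state of 138 and 83 cells had 8 of 16 HIF members lower by 1.5-fold and a median of -0.51, where 14.5% of genes were lower. The make-up of the cluster also differed between the libraries: its summed Arg1/Mmp12 markers were at 3952 CPM in placebo and 2406 CPM in E2, with Arg1 at 2052 and 631 CPM, Pdpn at 183 and 52.1 CPM and Mmp12, in the other direction, at 1078 and 1420.0 CPM. Its Apoe/Trem2 markers were at 2199 CPM in placebo and 4685 CPM in E2 and its mature dendritic markers at 177 CPM in placebo and 522 CPM in E2. Their part in the lower HIF targets was not tested.

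**Figure D3:**
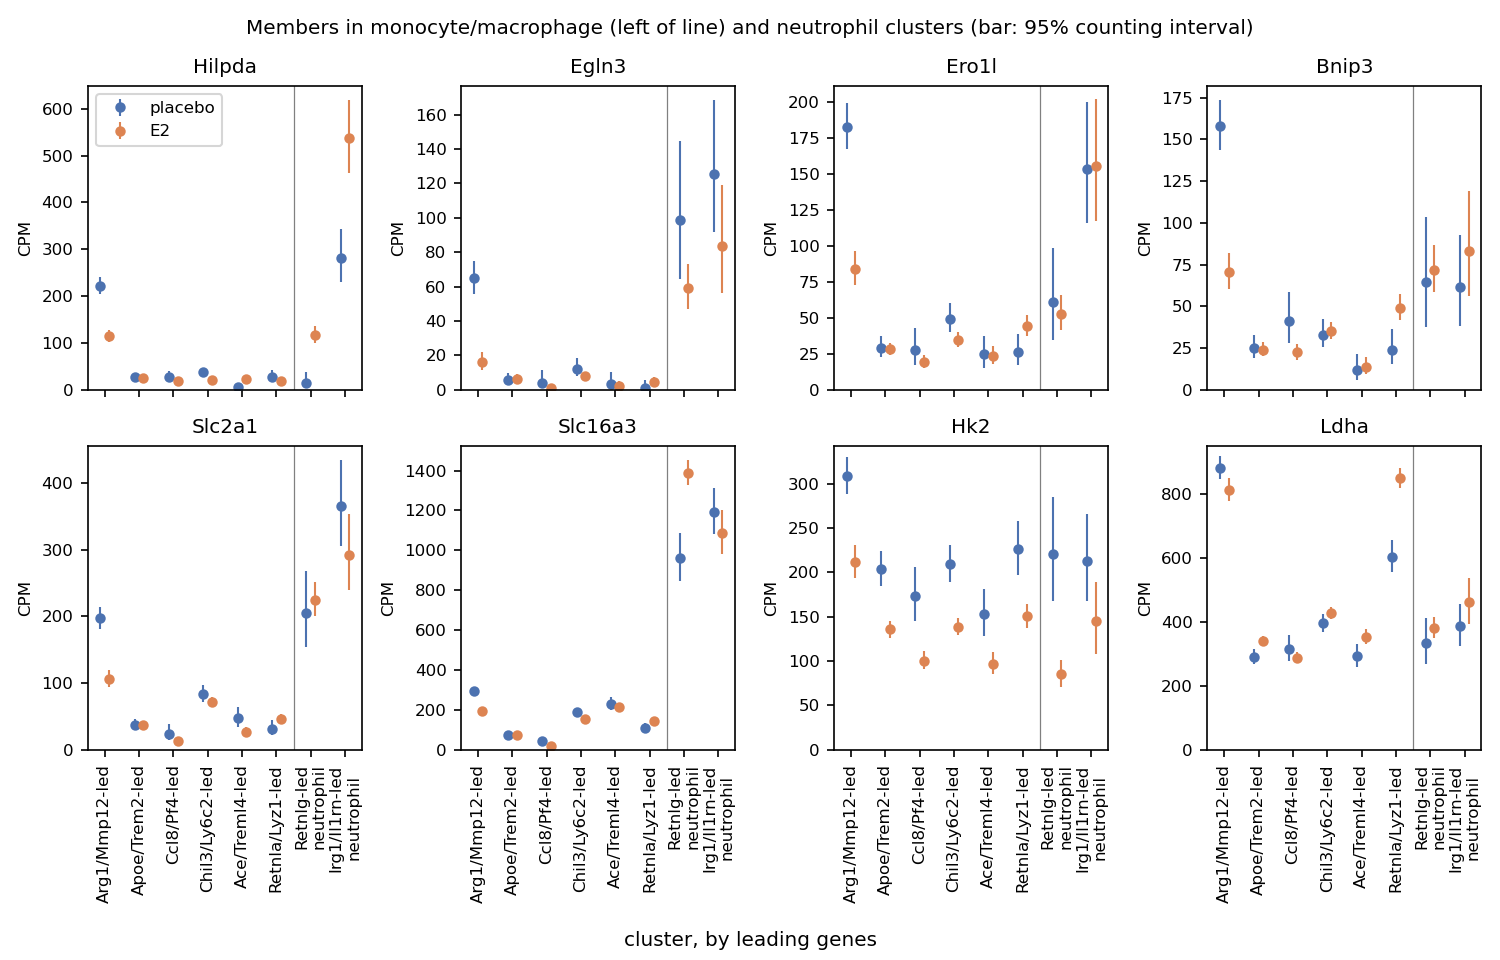
CPM of 8 members in the 6 monocyte/macrophage clusters and, right of the grey line, the 2 neutrophil clusters, placebo in blue and E2 in orange with 95% counting intervals. Among the first 6, Hilpda, Ero1l, Bnip3, Egln3, Slc2a1 and Hk2 are highest in the Arg1/Mmp12-led cluster in both libraries, Ldha in placebo alone, and Slc16a3 is highest in both neutrophil clusters.

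The other monocyte and macrophage clusters had smaller differences or differences in the other direction. In the Apoe/Trem2-led cluster (229 placebo and 590 E2 cells) the median was 0.00 for HIF members and 0.03 for enzymes. Of the 15 enzymes and 16 HIF members tested there, Hk2, Pfkfb4 and Pdk1 were lower by 1.5-fold, where 10.6% of genes were. Ndrg1 was higher, at 22.3 CPM in placebo and 41.7 CPM in E2, where 7.09% of genes were. In the Ace/Treml4-led cluster (100 and 278 cells) 14 enzymes and 15 HIF members were tested. The lower members were Hk2, Slc2a1 and Pfkfb4 (11.3% of genes) and the higher ones Hilpda and Mif (9.68%). The Chil3/Ly6c2-led cluster (202 and 551 cells), with 15 enzymes and 16 HIF members tested, had Hk2, Egln3 and Hilpda lower (10.1% of genes) and Pdk1 and Mif higher (5.64%). Its Hif1a level was at 397 CPM in placebo and 299 CPM in E2, the highest of the 6 clusters in both libraries. In all 3 clusters the share of members that were lower was near the all-gene share, and the share that were higher was near or below it. Under median-of-ratios scaling Hk2 no longer passed 1.5-fold in any of these 3 clusters, nor did Pfkfb4 and Pdk1 in the Apoe/Trem2-led and Egln3 in the Chil3/Ly6c2-led cluster.

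In the Ccl8/Pf4-led cluster (114 and 448 cells), HIF members had a median of -0.32, with Slc2a1, Slc16a3, Bnip3 and Ddit4 lower and Ndrg1 higher by 1.5-fold, where 16.1% of genes were lower and 9.99% higher. Its median depth was 5554 UMIs in placebo and 8136 in E2. The enzymes Hk2, Pfkl, Pfkp and Aldoc were lower there, and the enzyme median was -0.14, which turned to 0.04 under median-of-ratios scaling, where Pfkl no longer passed 1.5-fold. Summed Retnla/Ear2 markers in this cluster were at 5114 CPM in placebo and 535 CPM in E2, and T markers at 93.4 CPM in placebo and 8.18 CPM in E2. Their part in the result was not tested.

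In the Retnla/Lyz1-led cluster (76 and 210 cells) most members were higher in E2. There 12 of 15 tested HIF members and 11 of 15 enzymes were higher in E2, with medians of 0.34 and 0.29 beside -0.03 for all genes. By at least 1.5-fold, Aldoa, Tpi1, Pgam1, Pfkfb3, Pdk1, Bnip3, Ero1l, Ndrg1 and Mif were higher, where 11.9% of genes were, and Hk2, Aldoc and Hif1a were lower, where 12.7% were. Mif, a secreted cytokine with tautomerase activity, was at 336 CPM in placebo and 578 CPM in E2, Aldoa at 466 CPM in placebo and 729 CPM in E2 and Bnip3 at 24.2 CPM in placebo and 49.1 CPM in E2. Dissociation stress genes had a median of -0.57 in this cluster, with 10 of 20 lower by 1.5-fold, and made up 1.31% of UMIs in placebo and 0.874% in E2. The cluster's own Retnla/Ear2 markers, which include Retnla and Lyz1, were at 32458 CPM in placebo and 10006 CPM in E2, and cDC2 markers at 698 CPM in placebo and 1404 CPM in E2. Their part was not tested. Under median-of-ratios scaling none of the 3 lower members passed 1.5-fold.

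Hk2 was the 1 member that was lower in E2 in all 8 myeloid clusters. It did not reach 1.5-fold in the Arg1/Mmp12-led cluster, at 308 CPM in placebo and 212 CPM in E2, and in the Irg1/Il1rn-led neutrophil cluster, at 212 CPM in placebo and 145 CPM in E2. In the Retnlg-led neutrophil cluster it was at 220.4 CPM (167 to 285) in placebo and 84.9 CPM (70.5 to 101) in E2, 2.59-fold (1.86 to 3.58) lower in E2. In the Apoe/Trem2-led cluster it was at 204 CPM (185 to 224) in placebo and 136 CPM (126 to 146) in E2, 1.503-fold (1.33 to 1.69) lower in E2. Under median-of-ratios scaling it passed 1.5-fold in the Ccl8/Pf4-led and Retnlg-led clusters. The 4 gated states and the cells without a state all had Hk2 lower by at least 1.5-fold as well.

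By state gates, the HIF median was negative in every class but Retnla/Ear2 myeloid-like cells. In Ly6c2-high monocyte-like cells (314 placebo and 676 E2 cells) Slc2a1, Egln3, Ero1l and the enzymes Hk2 and Pfkl were lower by 1.5-fold, where 10.0% of genes were. The enzyme Aldoc was higher there, where 4.97% of genes were, at only 2.25 CPM in placebo and 4.34 CPM in E2. Ly6c2-high was also the most common gated state in the Arg1/Mmp12-led cluster, so this gate takes in cells of that cluster. Of the members lower in the gate, only Hk2 and Egln3 were also lower by 1.5-fold in the Chil3/Ly6c2-led cluster. The part of the Arg1/Mmp12-led cells in the gate's differences was not tested. In Ace/Treml4 monocyte-like cells 3 HIF members and the enzyme Hk2 were lower (13.6% of genes) and Hk3 was higher (9.79%). In Apoe/Trem2 macrophage-like cells Hk2, Pfkfb4 and Ddit4 were lower, a count near the all-gene share (12.1%). In Retnla/Ear2 myeloid-like cells 4 enzymes and Pfkfb4 were lower (12.0%) while Ero1l and Ndrg1 were higher (10.4%). Ndrg1 was low there, at 8.68 CPM in placebo and 15.6 CPM in E2. In cells without a state 7 HIF members were lower (10.5% of genes). HIF medians were -0.29, -0.15, -0.06, 0.23 and -0.43 in that order.

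**Figure D4:**
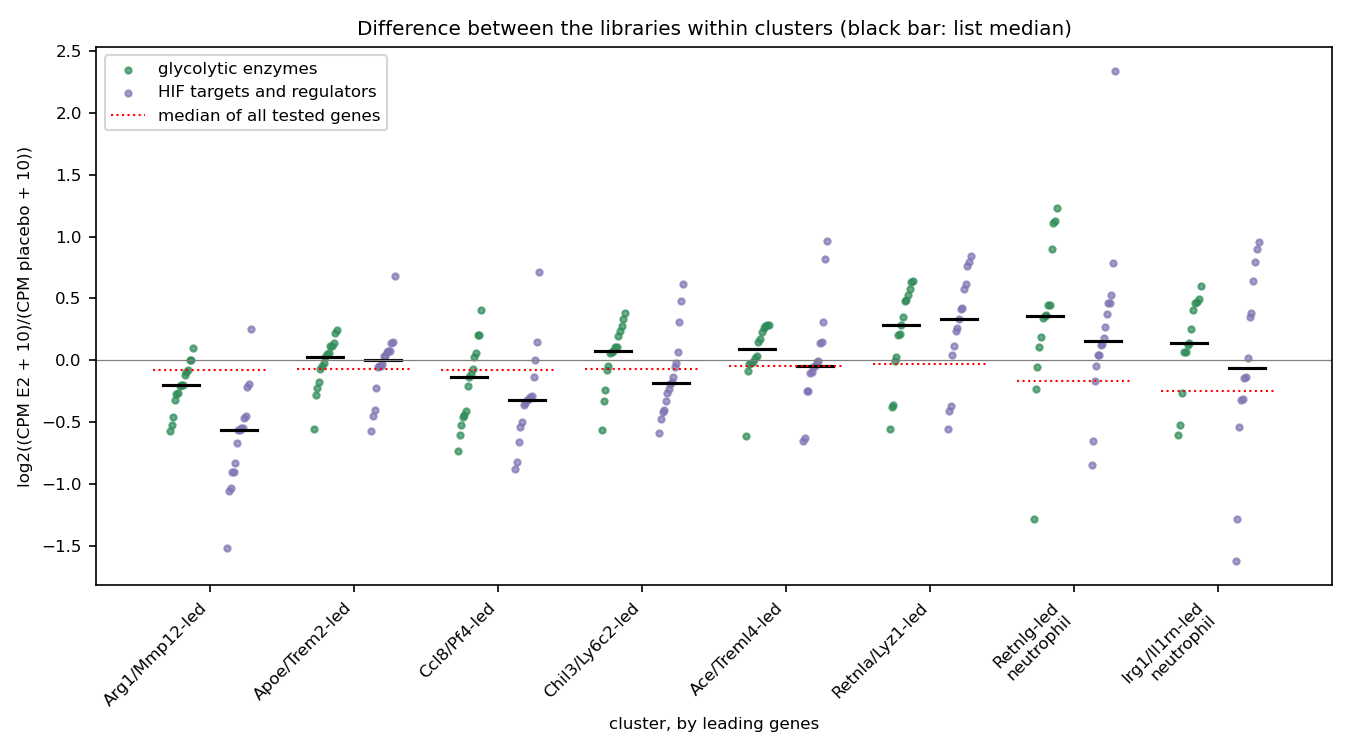
log2((CPM E2 + 10)/(CPM placebo + 10)) of each tested member in the 8 myeloid clusters, enzymes in green and HIF targets and regulators in violet, with black bars at the list medians and red dotted lines at the median of all tested genes. The HIF median is lowest in the Arg1/Mmp12-led cluster (-0.57) and highest in the Retnla/Lyz1-led cluster (0.34).

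In neutrophil-like cells, which rely on glycolysis for most of their ATP, more members were higher than lower in E2. Of 14 enzymes with at least 20 UMIs, 12 were higher and 3 by at least 1.5-fold, and of 16 HIF members 11 were higher and 4 by 1.5-fold, where 16.7% of all genes were. Lower by 1.5-fold were Hk2, Egln3 and Ddit4, where 19.4% of genes were. Medians were 0.26 for enzymes, 0.29 for HIF members and -0.03 for all genes. With median-of-ratios scaling, which moved the median of all genes to 0.07, 5 enzymes and 6 HIF members were higher by 1.5-fold, where 22.2% of genes were.

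Hilpda was at 129 CPM (101 to 162) in placebo and 201 CPM (180.5 to 223) in E2 in neutrophil-like cells, 1.56-fold (1.21 to 2.04) higher in E2. Pfkfb3 was at 51.9 CPM (34.8 to 74.5) in placebo and 103 CPM (88.3 to 119) in E2, 1.98-fold (1.33 to 3.04) higher in E2, and Mif at 166 CPM in placebo and 333 CPM in E2, 1.999-fold (1.603 to 2.52) higher in E2. Gapdh was at 869.9 CPM (794 to 951) in placebo and 1371 CPM (1316 to 1427) in E2, 1.58-fold (1.43 to 1.74) higher in E2, with Tpi1 at 80.5 CPM in placebo and 149.6 CPM in E2 and Pgk1 at 10.7 CPM in placebo and 36.4 CPM in E2. On the other side, Egln3 was at 115 CPM (88.2 to 146) in placebo and 53.7 CPM (43.4 to 65.8) in E2, 2.13-fold (1.53 to 2.96) lower in E2, and Hk2 at 195 CPM (160.2 to 235) in placebo and 94.2 CPM (80.3 to 109.8) in E2, 2.07-fold (1.61 to 2.66) lower in E2. Egln3 and Hk2 were thus lower in E2 in both neutrophil-like and monocyte/macrophage-like cells, and Hilpda was not.

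Clustering gave 2 neutrophil clusters in different proportions in the libraries. The cluster led by Retnlg held 114 placebo and 443 E2 cells, of which 101 and 421 were in the neutrophil gate, and the one led by Irg1 and Il1rn held 151 and 100, of which 125 and 94 were. The other cells of both clusters were in no gate. Hilpda was higher in E2 in each, at 282 CPM (229.8 to 343) in placebo and 536 CPM (463 to 618) in E2 in the Irg1/Il1rn-led cluster and 15.2 CPM (4.14 to 38.9) in placebo and 117 CPM (99.9 to 136) in E2 in the Retnlg-led cluster. After thinning, 12.6% (6.89 to 20.6) of placebo and 31.9% (22.5 to 42.5) of E2 cells of the Irg1/Il1rn-led cluster had a Hilpda UMI, and without thinning 14.6% and 33%. In that cluster Hk1, Pfkfb3, Hif1a, Hilpda and Mif were higher by 1.5-fold (8.25% of genes) and Pfkl, Pfkfb4, Egln3 and P4ha1 lower (30.2%). In the Retnlg-led cluster Pfkl, Tpi1, Gapdh, Pgk1, Pdk1, Hilpda and Mif were higher (13.0%) and Hk2, Egln3 and Ddit4 lower (26.0%). Summed neutrophil markers in the gate were at 109088 CPM in placebo and 171100.0 CPM in E2, monocyte/macrophage markers at 1001 CPM in placebo and 1445 CPM in E2, and median depth was 2426 and 3136 UMIs. The same scaling moved the median of all genes from -0.17 to 0.14 in the Retnlg-led and from -0.25 to -0.13 in the Irg1/Il1rn-led cluster. Under it Egln3 no longer passed 1.5-fold in either cluster, and Pfkl did not in the Irg1/Il1rn-led cluster with the total taken without the 100 most abundant genes. The part of the marker levels, depth and scaling in the neutrophil result was not tested.

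Dendritic-like and mast-like cells showed few members past the limit. In cDC1-like cells Hk2, Aldoc and Ndrg1 were lower (14.0% of genes) and Ddit4 was higher (9.96%). In cDC2-like cells Slc2a1 was lower, at 60.1 CPM in placebo and 38.9 CPM in E2 (12.8% of genes). Under median-of-ratios scaling Hk2 and Aldoc in cDC1-like and Slc2a1 in cDC2-like cells did not pass 1.5-fold. In mature dendritic-like cells Hk2 was lower (13.5%) and Pfkp and P4ha1 were higher (7.29%). In mast-like cells Pfkl was lower (14.2%), while Hk2, P4ha1 and Hilpda were higher (14.4%). Hilpda there was at 23.99 CPM (11.98 to 42.9) in placebo and 83.8 CPM (70.9 to 98.3) in E2 and Hk2 at 15.3 CPM (6.14 to 31.5) in placebo and 52.5 CPM (42.4 to 64.3) in E2, so both were higher in E2 here and lower in E2 in monocyte/macrophage-like cells. Cell cycle genes in mast-like cells had a median of 1.10, and the part of cycling cells was not tested.

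In T-like cells the members were a little lower in E2. None of 14 enzymes and 2 of 15 HIF members were lower by 1.5-fold, where 8.95% of genes were: Bnip3, at 29.2 CPM in placebo and 19.2 CPM in E2, and Ndrg1, at 51.9 CPM in placebo and 32.6 CPM in E2. Medians were -0.19 and -0.26, beside -0.06 for all genes and 0.39 for cell cycle genes. Under median-of-ratios scaling neither Bnip3 nor Ndrg1 passed 1.5-fold.

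The T subsets differed in level. Regulatory T-like cells (477 placebo and 435 E2 cells) had the highest Hif1a of the subsets, at 469.7 CPM (444 to 496) in placebo and 364 CPM (341 to 389) in E2, and the highest Ddit4, Ndrg1 and Pkm in both libraries, with Bnip3, Ndrg1, Ddit4, Aldoc and Pfkl lower in E2 (11.2% of genes). Gamma-delta T-like cells (48 and 82 cells) had the highest Hilpda, at 244 CPM (187 to 312) in placebo and 488 CPM (419 to 564) in E2, and the highest Hk2, at 221 CPM in placebo and 303 CPM in E2. There Bnip3l, Ero1l, Hilpda and P4ha1 were higher by 1.5-fold (10.6% of genes) and Slc2a1 and Egln3 lower (15.6%). CD8 T-like cells (185 and 103 cells) had Hk2 at 58.8 CPM in placebo and 16.9 CPM in E2 and were lower in Hk2, Egln3 and Bnip3 (17.0%) and higher in Pgam1 and Pfkfb3 (5.55%). In the remaining T-like cells (369 and 270) 6 HIF members and 2 enzymes were lower (12.6% of genes).

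NK-like and B-like cells were few. In NK-like cells Tpi1, Gapdh, Pgk1, Pgam1, Ero1l, Hilpda and Mif were higher (15.4% of genes) and Ddit4 was lower (17.9%), with cell cycle genes at a median of 0.86. In B-like cells Pfkl and Slc2a1 were higher (9.74%) and Pfkp and Pfkfb3 were lower (30.8%), with cell cycle genes at a median of -2.39. Over the 8 types other than monocyte/macrophage-like cells, 14 member and type pairs were lower and 22 were higher by 1.5-fold, beside 15.2% and 9.97% of all gene and type pairs. As shares of the member pairs tested, the higher pairs were near the all-gene share and the lower pairs were below it. Under median-of-ratios scaling 8 pairs were lower and 35 higher, beside 10.9% and 13.8%, so the lower share was again below that of all genes and the higher share a little above. Ddit4 in NK-like cells was not past 1.5-fold under that scaling, and Pfkp and Pfkfb3 in B-like cells were not with the total taken without the 100 most abundant genes.

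The members were also compared, by summed UMIs, between cells with and without a Hilpda UMI after thinning to 2000 UMIs. In placebo monocyte/macrophage-like cells, 70 cells had one and 764 did not. Hilpda itself, which chose the cells, is not counted. In the 70 cells, 14 of 14 tested enzymes and 12 of 15 tested HIF members were at least 1.5-fold higher, where 14.9% of genes were. Egln3 was 15.2-fold (7.94 to 29.5) higher, Bnip3 6.68-fold (4.41 to 9.997), Ero1l 6.602-fold (4.53 to 9.53), Pfkl 6.14-fold (3.68 to 10.04) and Ldha 2.19-fold (1.7995 to 2.66), while Hk2 was 1.57-fold (1.12 to 2.16) higher. In E2, with 86 and 1959 cells, 4 of 14 enzymes and 8 of 15 HIF members were (15% of genes), Egln3 by 5.06-fold (1.25 to 15.4), Bnip3 by 1.86-fold (0.8302 to 3.67) and Ero1l by 2.28-fold (1.18 to 4.03). Ldha differed by 1.13-fold (0.883 to 1.41). Most of the gate's Hilpda UMIs in placebo, but not in E2, came from the Arg1/Mmp12-led cluster. Inside it the placebo ratios were smaller for Egln3 (5.76-fold), Ero1l (3.45-fold), Pfkl (3.85-fold) and Ldha (1.58-fold), and that of Hk2 was 1.65-fold. The part of the cluster in the ratios over the gate was not tested.

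Within the Arg1/Mmp12-led cluster, the 66 placebo cells with a Hilpda UMI had 9 of 13 tested enzymes and 10 of 13 tested HIF members at least 1.5-fold above the 184 cells without one, where 15.6% of genes were. The 25 such E2 cells had 1 of 12 enzymes and 6 of 10 HIF members above the other 159 (16.9% of genes). Bnip3 was 2.96-fold (1.96 to 4.46) higher in placebo and 3.18-fold (1.18 to 7.88) in E2, Ndrg1 4.14-fold (2.61 to 6.64) and 2.68-fold (1.01 to 6.41), and Slc16a3 2.05-fold (1.49 to 2.81) and 2.05-fold (1.15 to 3.48). In E2 neutrophil-like cells, 67 with a Hilpda UMI against 414 without, 2 of 14 enzymes and 5 of 13 HIF members were higher (10.2% of genes). In placebo neutrophil-like cells, 11 with against 159 without, 1 of 11 enzymes and 1 of 9 HIF members were (19.2% of genes). Cells of 1 library are not replicates, and these ratios describe each library alone.

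Other genes of the same pathways were read from 2 further lists in monocyte/macrophage-like cells. Of 32 hypoxia pathway genes outside the members, 28 had at least 20 UMIs and 23 were lower in E2, with a median of -0.10. By at least 1.5-fold, 5 were lower and 1 was higher, where 7.98% and 8.42% of all genes were. Bhlhe40, a transcriptional repressor induced by HIF, was at 168 and 82.7 CPM in placebo and E2. Few UMIs were counted for Ak4, a mitochondrial adenylate kinase, at 2.43 and 1.2003 CPM, and Nos2, the inducible nitric oxide synthase, at 2.799 and 0.528 CPM. Epas1, which encodes the alpha subunit of HIF-2 and is named here after its value was seen, was at 1.95 and 1.2003 CPM, from 16 and 25 UMIs. The interval of its ratio of E2 to placebo, 0.316 to 1.24, included no difference. Tfrc, the transferrin receptor, was at 21.4 and 13.3 CPM. Plod1, a collagen lysyl hydroxylase, was higher, at 32.1 and 58.5 CPM. Vegfa, the vascular growth factor and a well-known HIF target, also named after its value was seen, was at 134 and 197 CPM, just short of 1.5-fold higher. Of 33 further glycolysis and glucose genes, 24 had at least 20 UMIs, 13 were lower and 11 higher, with a median of -0.01, and only the lactate carrier Slc16a1 passed 1.5-fold, at 12.05 and 6.77 CPM. In the Arg1/Mmp12-led cluster the same lists had medians of -0.17 and 0.00.

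Barcodes that no gate took (529 placebo and 660 E2, with medians of 1859 and 4460 UMIs) also had lower HIF target levels in E2. There, 9 of 16 HIF members and 1 of 15 enzymes were lower by at least 1.5-fold, where 18.6% of genes were, with medians of -0.63 and -0.14. Under median-of-ratios scaling the enzyme median turned to 0.03, the HIF median was -0.49, and Slc16a3 did not pass 1.5-fold. Egln3 was at 38.9 CPM in placebo and 6.74 CPM in E2, Ero1l at 132 CPM in placebo and 41.1 CPM in E2 and Ndrg1 at 68.03 CPM in placebo and 25.4 CPM in E2. Of these barcodes, 77 in placebo and 65 in E2 belonged to the Arg1/Mmp12-led cluster.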

How the data were processed

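Each of the 2 samples has 1 deposited 10x table of raw UMI counts per gene and barcode, made by the authors with Cell Ranger 3.1.0, per the file headers, and the submitters' processing notes name mm10 as its genome. The sources used here do not give the annotation release or the counting of strand. No other per-sample columns were used. The 37 mitochondrially encoded features held 0 UMIs, so no mitochondrial filter could be applied.

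Barcodes with under 200 genes were removed (15 placebo, 26 E2). Scrublet scores (scanpy 1.11.5) were computed per library. The automatic threshold marked 0.086% and 1.49%, so 0.8% per 1000 barcodes, those with the highest scores, were left out instead (97 and 266). A cell took the marker list with the highest score, the mean over its genes of log-normalised expression divided by that gene's 95th percentile among expressing cells and capped at 1, if it reached 0.3 and led the next list by 0.1. Of the gated cells, 165 of 2977 monocyte/macrophage-like, 20 of 742 neutrophil-like and 101 of 378 cDC2-like cells led by under 0.2. Classes with under 30 cells in a library were not used, including 3 of 7 macrophage states (Pf4/Folr2, Arg1/Mmp12 and interferon-high) and pDC-, basophil- and ILC2-like cells. Leiden clusters (leidenalg 0.10.2, 30 components, 15 neighbours, resolution 1) were computed on 1994 variable genes without the members. Clusters served as an alternative to the gates. Standardised state gates, the separate description of the Arg1/Mmp12-led cluster, and the values with equal cluster weights, without that cluster and without shared barcodes were chosen after seeing the data. So was the use of cDC1-like cells, in place of T-like cells, as the type with low shares of cells with a UMI.

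UMIs were summed per class and library and scaled to CPM. Ratios carry exact conditional-binomial 95% intervals, levels exact Poisson intervals, all of counting error only. A fold on the log2 scale with 10 CPM added understates the change of low genes. The ratio and call steps were tested on simulated counts. No test of E2 against placebo was possible with 1 library per group. Nothing says whether a library pooled mice. All 32 members could be named, and of each other list up to 5 genes with the largest log2 ratio past 1.5-fold in monocyte/macrophage-like cells. Epas1 and Vegfa fall outside this rule and were named after their values were seen. Full values were reserved for members past 1.5-fold there or differing by 2-fold between states, with further class values given where a member was past 1.5-fold in that class or its order across types is described. The members, lists and markers were chosen with earlier results of these data known. Promoter windows came from RefSeq (GRCm38.p6) and exons from GENCODE M21. Numpy 2.4.6, scipy 1.17.1, pandas 2.3.3 and matplotlib 3.10.9 were used in Python 3.11.15.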

Additional observations from a re-analysis of the deposited data

Results flagged for a closer look

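Members that were past 1.5-fold in opposite directions in different cell types or clusters are given as log2((CPM E2 + 10)/(CPM placebo + 10)), and the differences between classes were not tested, since each value compares 1 library with another. Hilpda was at -1.17 in monocyte/macrophage-like cells, 0.60 in neutrophil-like, 1.12 in NK-like and 1.46 in mast-like cells. By cluster it was at -0.90 in the Arg1/Mmp12-led and -0.59 in the Chil3/Ly6c2-led cluster, and at 0.96 in the Ace/Treml4-led, 0.90 in the Irg1/Il1rn-led and 2.33 in the Retnlg-led cluster. Hk2 was at -0.77 in monocyte/macrophage-like, -0.98 in neutrophil-like and -0.55 in cDC1-like cells, against 1.31 in mast-like cells. Bnip3 was at -1.06 in the Arg1/Mmp12-led, -0.66 in the Ccl8/Pf4-led and 0.79 in the Retnla/Lyz1-led cluster. Ero1l was at -1.03 in the Arg1/Mmp12-led and 0.58 in the Retnla/Lyz1-led cluster. Ndrg1 was at -0.90 in the Arg1/Mmp12-led cluster, against 0.68 in the Apoe/Trem2-led, 0.71 in the Ccl8/Pf4-led and 0.84 in the Retnla/Lyz1-led cluster. Hif1a was at -0.55 in the Retnla/Lyz1-led and 0.64 in the Irg1/Il1rn-led cluster. Pdk1 was at -0.45 in the Apoe/Trem2-led, 0.48 in the Chil3/Ly6c2-led and 0.61 in the Retnla/Lyz1-led cluster. Under median-of-ratios scaling Hk2 in cDC1-like cells, Hif1a in the Retnla/Lyz1-led and Pdk1 in the Apoe/Trem2-led cluster did not pass 1.5-fold.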

How the results depend on the processing

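No paired analysis was possible because each group held 1 library, and for the same reason no library could be left out. Of the results that answer a comparison, 76 values under an alternative stayed and 26 moved. A count stayed if it was within 1.5 times the reported count, and a ratio of shares if it was within its counting interval. A list median stayed if it was within a tolerance taken from the widths of its members' counting intervals, which is not an interval of the median itself. In monocyte/macrophage-like cells, the 3 enzymes and 8 HIF members lower by 1.5-fold became 1 and 2 with states weighted equally, 1 and 3 with clusters weighted equally, and 2 and 1 without the Arg1/Mmp12-led cells. The medians of -0.20 and -0.48 became -0.062 and -0.13, -0.061 and -0.24, and -0.050 and -0.11 in the same order. These settings change the mix of states by construction, and equal state weights also leave out the cells without a state and the states with under 30 cells. Member and state pairs lower by 1.5-fold, 8 for enzymes and 9 for HIF members, became 5 and 4 at a minimum of 100 UMIs and 18 and 34 with standardised gates, which define more states, and the enzyme pairs became 3 with a gate margin of 0.2. In the other types, 14 pairs were lower and 22 higher. These became 23 and 14 with clusters in place of gates, 8 and 35 with median-of-ratios scaling and 8 and 13 at a minimum of 100 UMIs. The lower pairs also became 8 with the total taken without the 100 most abundant genes and 29 at a minimum of 5 UMIs. Beyond the filters and mixes, the cause was not tested. The log2 ratio of shares of cells went from -1.93 to -1.02 for Egln3 and from -0.84 to -0.36 for Bnip3 without thinning. Turned in sign were Bnip3, at 0.035 without the Arg1/Mmp12-led cells, and Hilpda, at 0.022 with states weighted equally. Among single members past 1.5-fold and the median of all genes, 136 values stayed, 30 moved and 2 turned. Depth limits Adm in all types but mature dendritic-like cells, and Egln3 wherever under 20 UMIs were counted.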
